A study of Homo sapiens with 4 samples.

Results

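The NRF2 antioxidant response was followed in 10 genes: NFE2L2, KEAP1, HMOX1, NQO1, GCLC, GCLM, TXNRD1, SRXN1, TXN and PRDX1. They were chosen by name from knowledge of the pathway, with earlier results of these data known. Each was found in the count table by the Ensembl identifier that GENCODE pairs with its symbol, and all 10 were among its 64252 genes. The question was how each of them stood after dBET1, a small molecule that brings BET bromodomain proteins to cereblon for degradation. RNA was sequenced from cells labelled NB4, a line of acute promyelocytic leukemia that carries the PML-RARa fusion, after 24 h with 8 μM dBET1 (2 libraries) or with an equal volume of DMSO, the solvent (2 libraries). No genotype or other agent distinguished the groups, and a single cell line was sequenced.

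NRF2, the protein of NFE2L2, is a transcription factor that is normally held in the cytoplasm by KEAP1 and passed to a CUL3 ubiquitin ligase for destruction. When oxidants or electrophiles modify KEAP1, NRF2 escapes, enters the nucleus, pairs with a small MAF protein and binds antioxidant response elements (AREs) in the promoters of detoxifying genes. BACH1 competes for the same elements and represses them until heme displaces it. Because NRF2 is controlled largely at the protein level, the RNA of NFE2L2 does not measure its activity.

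The ARE core has the letters TGACNNNGC, and these letters were searched on both strands in the bases before each annotated RefSeq start of the NRF2 genes. Starts were listed for 8 of the 10 genes, with 11 starts in all, and none was listed for HMOX1 or PRDX1. Within 1000 bases before the start, 7 of the 11 starts had a match, against 31.9% of 35116 starts of all genes. Within 250 bases it was 4 of 11, against 10.9% of all starts. The matches are shown with 10 bases on each side, because they are the letters that NRF2 and BACH1 are known to read; the capitals mark the 9 letters of the core, each written 5′ to 3′ on the strand that carries it.
NQO1, chr16:69726997-69727025 of hg38, reverse strand: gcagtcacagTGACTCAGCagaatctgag
GCLC, chr6:53545953-53545981, forward strand: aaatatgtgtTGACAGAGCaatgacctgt
GCLM, chr1:93909446-93909474, forward strand: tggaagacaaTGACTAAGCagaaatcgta
TXNRD1, first start, chr12:104215670-104215698, forward strand: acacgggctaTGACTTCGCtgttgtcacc
TXNRD1, second start, chr12:104286920-104286948, reverse strand: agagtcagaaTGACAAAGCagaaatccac
KEAP1, inner start, chr19:10502784-10502812, forward strand: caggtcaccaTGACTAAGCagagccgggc
KEAP1, inner start, chr19:10502807-10502835, reverse strand: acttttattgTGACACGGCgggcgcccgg
TXN, chr9:110257070-110257098, forward strand: tgctccagctTGACACAGCggtttagtgc

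The match before NQO1 also held the AP-1 letters TGACTCA, which the other 7 did not. It began 455 bases before the start, the matches before GCLC and TXN began 870 and 581 bases before theirs, and those before GCLM, TXNRD1 and KEAP1 lay within 102 bases. No match was found before either start of NFE2L2, the outer start of KEAP1 or the start of SRXN1. A match says only that these letters are present, and its absence only that they are not in this window. NQO1 and GCLC, which rose after dBET1, and TXN and KEAP1, which fell, all had one. NFE2L2, which also fell, had none. Among the genes that did not pass the test, GCLM and TXNRD1 had one and SRXN1 had none.

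The counts of the 4 libraries summed to between 28019956 and 34685645, and 17971 genes passed the count filter. Values are given below as CPM, the counts scaled to a common library size with TMM factors, and SDs are over 2 libraries. The cells were checked against markers of the labelled line. The promyelocyte and granulocyte markers (13 genes) summed to 60.5 and 61.9 CPM with DMSO and to 59.1 and 57.9 CPM with dBET1. ELANE and CTSG, neutrophil granule proteases, had 0 counts in all 4 libraries, and MPO had 0 counts in both DMSO libraries and 22 and 10 with dBET1. For ELANE and CTSG, genes that the counting missed cannot be told apart from genes without RNA, as set out for HMOX1 below. Other genes of that list were present with DMSO, among them SPI1 (28.2 CPM), LYZ (17.9 CPM) and CD33 (10.9 CPM). Of its 10 tested genes, MPO, CEBPA, ITGAM and FCGR1A were higher after dBET1 (28.0% of all tested genes were). All 4 had few counts with DMSO, CEBPA 5 and 7 and FCGR1A 6 and 0. They passed the count filter only through the dBET1 libraries, so a call could only be in the higher direction. These calls therefore say nothing about the markers as a group. LYZ and SPI1 were lower (27.6% of all were), and 4 did not pass. The call of SPI1 was lost in 7 of the 11 alternatives. ITGAM, an integrin of mature myeloid cells, had 22 and 9 counts with DMSO and 170 and 152 with dBET1. The erythroid markers (15 genes, globin genes and GATA1 among them) summed to 9104 and 10195 CPM with DMSO and to 5361 and 5321 CPM with dBET1. The libraries are therefore called here by their treatment. With dBET1, 13 of the 15 erythroid markers were lower (27.6% of all tested genes were), and the part of this in the values below was not tested. GATA1, KLF1 and the globin genes of the list belonged to the most abundant 10% of tested genes by mean CPM. There, 1117 of 1797 genes were lower, and the part of abundance in the fall of the markers was not tested. In bulk RNA, fewer cells of a type and less RNA per cell cannot be told apart.

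Of the 10 NRF2 genes, 9 passed the count filter and HMOX1 did not. By the quasi-likelihood test of edgeR, at 0.05 after adjusting p by Benjamini-Hochberg over all tested genes, 6 of the 9 differed between dBET1 and DMSO, while 55.6% of all tested genes did. NQO1 and GCLC were higher (28.0% of all tested genes were), and NFE2L2, KEAP1, TXN and PRDX1 were lower (27.6% of all were). GCLM, TXNRD1 and SRXN1 did not pass. Only GCLC passed the test with an absolute log2 fold change above 1, as 25.4% of all tested genes did. The share of NRF2 genes that differed was thus close to that of all genes, and their median log2 fold change was -0.09, against 0.05 for all genes tested. With library sizes taken from total counts only, the median of all genes moved to 0.26, that of the NRF2 genes turned to 0.12, and the calls became 3 higher (NQO1, GCLC and SRXN1) and 3 lower (KEAP1, TXN and PRDX1). Across the table, 50.4% of calls were in the higher direction under TMM scaling, and 65.2% were under total counts.

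**Figure D1:**
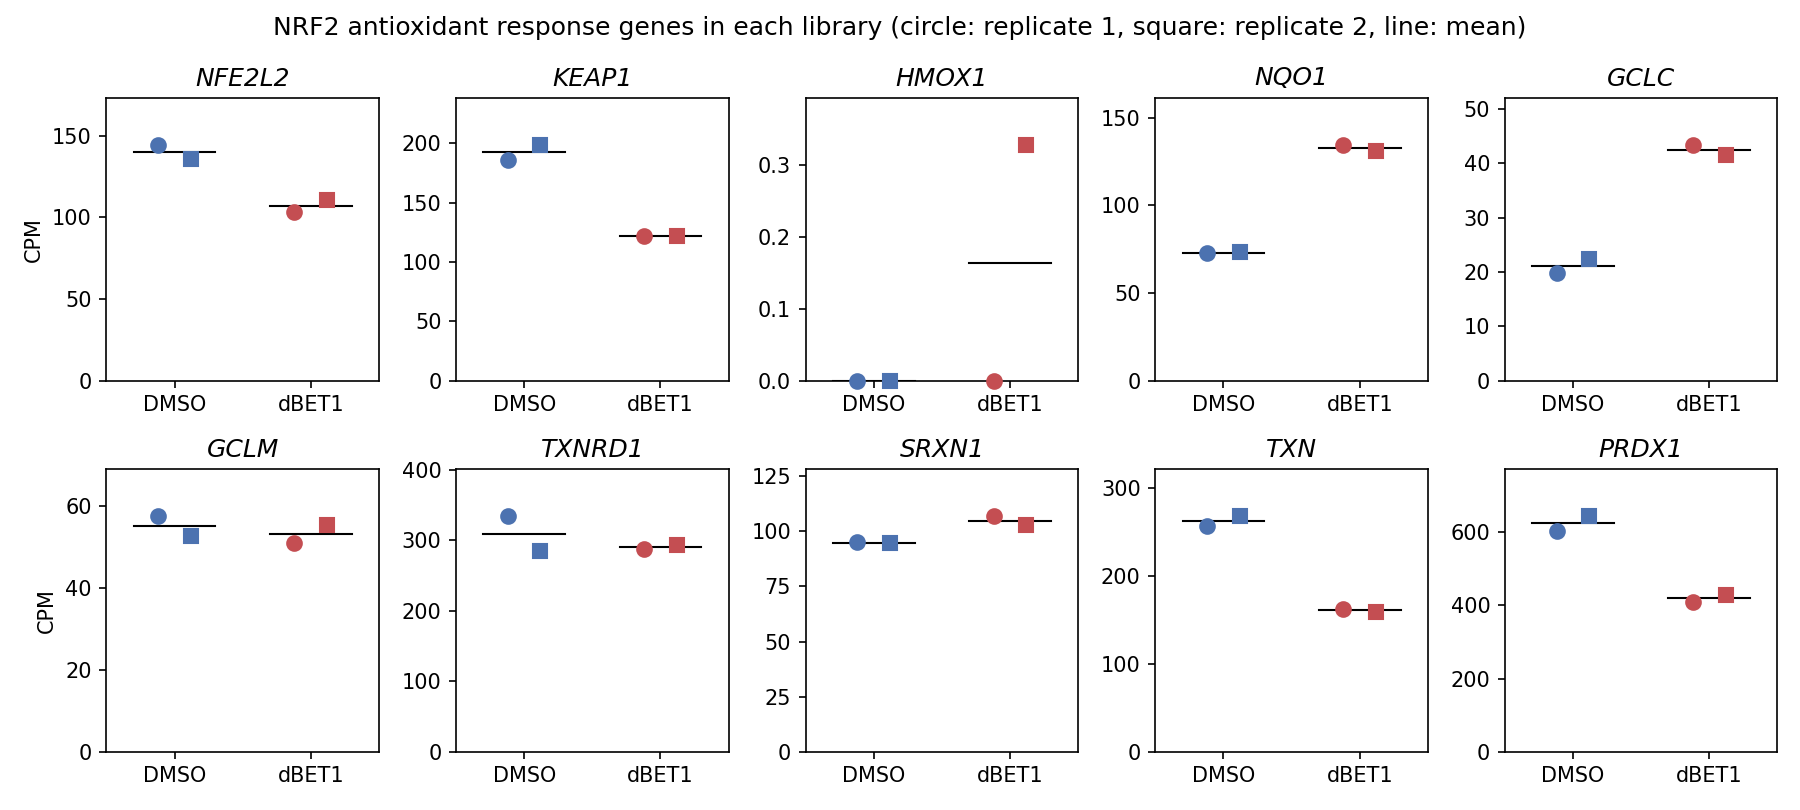
CPM of the 10 NRF2 genes in each of the 4 libraries, on linear axes that start at 0; circles are replicate 1, squares replicate 2, and the line is the mean of the group. NQO1 and GCLC lie higher in both dBET1 libraries, NFE2L2, KEAP1, TXN and PRDX1 lie lower, GCLM and TXNRD1 overlap between the groups, and HMOX1 is at or near 0.

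The transcription factor and its inhibitor both had less RNA after dBET1. NFE2L2 (chromosome 2, 177218667 to 177392756, reverse strand) reached 144 and 135 CPM in the DMSO libraries and 103 and 111 CPM in the dBET1 libraries. Both dBET1 libraries lay below both DMSO libraries. The log2 fold change was -0.39 (standard error, SE, 0.0806, edgeR quasi-likelihood adjusted p = 0.00472), the smallest change among the 6 genes that passed. It did not pass with total counts only (-0.18, adjusted p = 0.114) or without dBET1 replicate 1 (-0.34, adjusted p = 0.0898). The annotated span of NFE2L2 also shares 3509 exonic bases of its longer transcripts with HNRNPA3, a splicing factor gene on the opposite strand. HNRNPA3 had 44737 and 37436 counts under DMSO against 11980 and 11862 under dBET1, and whether counting used strand is not given in the sources used here, so the part of its reads in the NFE2L2 counts was not tested. The canonical transcripts of these 2 genes share 0 exonic bases.

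KEAP1 (chromosome 19, 10486125 to 10503558, reverse strand), the sensor that hands NRF2 to the ubiquitin ligase, reached 186 and 199 CPM with DMSO and 122 CPM in each dBET1 library. The groups were separated by far more than the spread within either. The log2 fold change was -0.66 (SE 0.0747, edgeR quasi-likelihood adjusted p = 0.000237), and it was -0.73 to -0.45 over the alternative settings, all of which kept the call. Per kilobase of canonical transcript, NFE2L2 stood at 0.812 and 0.715 of the level of KEAP1 in the DMSO libraries and at 0.886 and 0.956 of it in the dBET1 libraries. The log2 difference of this ratio was 0.27, against SDs of 0.130 and 0.0775 within the groups. Any reads of HNRNPA3 among the NFE2L2 counts would enter this ratio as well.

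NQO1 (chromosome 16, 69706996 to 69726668, reverse strand) encodes the quinone reductase that is the classical readout of NRF2. It had 2382 and 2061 counts with DMSO and 4041 and 4006 with dBET1, or 72.9 and 73.3 CPM against 134 and 131 CPM. Replicates differed by only a few CPM, and both dBET1 libraries were nearly level with each other. This was 1.82-fold higher, a log2 fold change of 0.86 (SE 0.0758, edgeR quasi-likelihood adjusted p = 7.19e-05). Under the alternatives it ran from 0.81 to 1.07 and always passed. NQO2, the paralog that uses another reducing cosubstrate, went from 157 ± 3.84 to 186 ± 3.30 CPM (SD, n = 2 per condition). Its log2 fold change of 0.24 passed (adjusted p = 0.0218) but lost the call with DESeq2 (0.21, adjusted p = 0.0688), with no count filter (0.19) and without either dBET1 library. The NQO1 to NQO2 ratio within a library rose 1.54-fold, from a log2 of -2.34 to -1.72.

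Glutamate-cysteine ligase makes the first and limiting step of glutathione synthesis, with a catalytic subunit from GCLC and a modifier subunit from GCLM that makes the enzyme more active. GCLC passed the test and GCLM did not. GCLC (chromosome 6, 53497341 to 53616970, reverse strand) reached 19.8 and 22.4 CPM with DMSO and 43.4 and 41.5 CPM with dBET1. Both dBET1 libraries stood near 2 times the DMSO level. Its log2 fold change was 1.01 (SE 0.110, edgeR quasi-likelihood adjusted p = 0.000196) and ran from 0.89 to 1.22 under the alternatives, always past the test but under 1 with DESeq2 (0.97), with DESeq2 size factors, with no count filter (0.95) and without DMSO replicate 1 (0.89) or dBET1 replicate 1. GCLM (chromosome 1, 93885199 to 93909456, reverse strand) reached 57.5 and 52.7 CPM with DMSO and 51.0 and 55.2 CPM with dBET1. The groups overlapped. Its log2 fold change was -0.05 (SE 0.0941, edgeR quasi-likelihood adjusted p = 0.667), and its sign turned with total counts only (0.16) and with at least 10 counts required in every library (0.02).

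Per kilobase of transcript, GCLC stood at 0.444 and 0.549 of the level of GCLM in the DMSO libraries and at 1.10 and 0.969 of it in the dBET1 libraries. By this measure the 2 subunit RNAs went from unequal to nearly equal levels. The near equality depends on the canonical transcript lengths. By CPM alone GCLM stayed above GCLC with dBET1 (51.0 and 55.2 against 43.4 and 41.5 CPM). A ratio within a library does not depend on the scaling factors. The ratio of GCLC to GCLM rose 2.09-fold, by 1.06 on the log2 scale, against SDs of 0.217 and 0.127 within the groups. With 2 libraries against 2, the exact permutation test (two-sided) cannot give a p below 0.333, and it gave 0.333 for each of the 6 ratios compared (adjusted p = 0.333). The 250 bases before the 2 starts are printed because they show how the subunit genes differ next to their starts: the sequence before GCLM holds the ARE core, in capitals as read on the gene's own strand, and the one before GCLC has none. The GC content was 72.4% before GCLM and 60.8% before GCLC.
GCLM, chr1:93909431-93909680 of GRCh38.p14, reverse strand: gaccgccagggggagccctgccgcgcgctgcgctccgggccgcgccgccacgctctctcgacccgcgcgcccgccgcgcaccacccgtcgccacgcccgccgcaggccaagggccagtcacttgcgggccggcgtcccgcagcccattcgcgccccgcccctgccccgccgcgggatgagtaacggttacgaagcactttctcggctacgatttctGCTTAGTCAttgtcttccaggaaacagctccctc
GCLC, chr6:53545102-53545351 of GRCh38.p14, reverse strand: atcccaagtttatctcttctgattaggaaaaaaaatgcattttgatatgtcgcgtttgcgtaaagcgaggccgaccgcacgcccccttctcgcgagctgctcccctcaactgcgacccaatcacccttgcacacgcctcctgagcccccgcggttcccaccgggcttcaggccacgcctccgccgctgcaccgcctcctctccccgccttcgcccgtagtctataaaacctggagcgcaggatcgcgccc

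**Figure D2:**
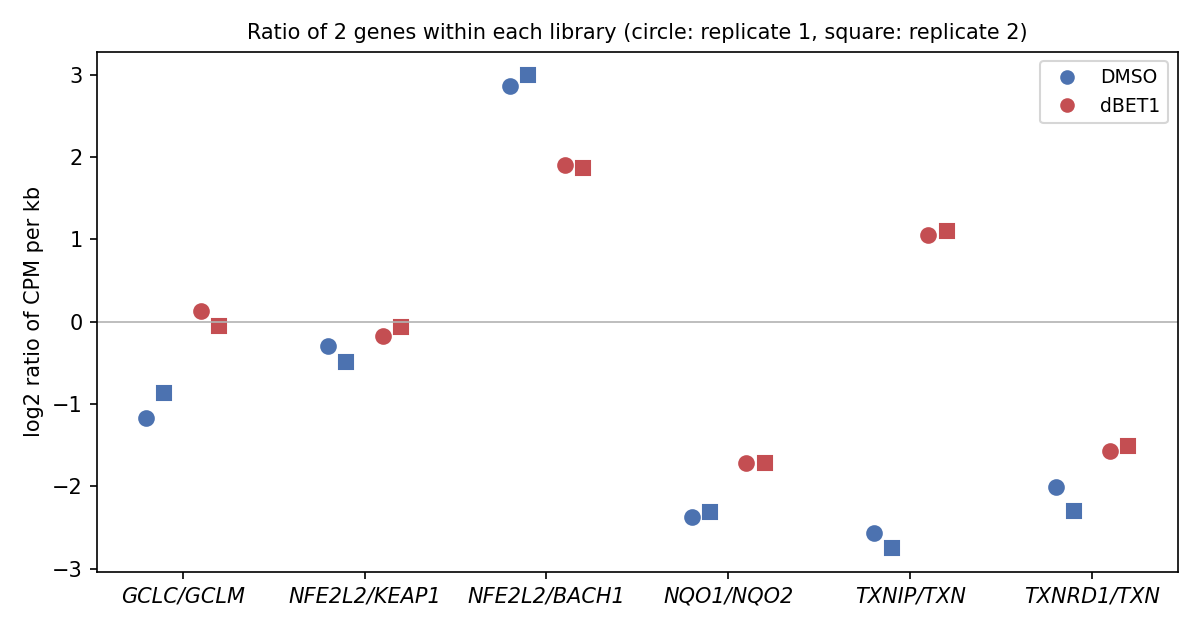
Log2 ratio of the CPM per kilobase of 2 genes within each library, DMSO in blue and dBET1 in red; circles are replicate 1 and squares replicate 2. GCLC against GCLM moves from a mean of -1.02 to 0.04, TXNIP against TXN from -2.66 to 1.08, and NFE2L2 against BACH1 falls from 2.93 to 1.88.

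The thioredoxin system reduces protein disulfides with electrons from NADPH, through thioredoxin (TXN) and thioredoxin reductase (TXNRD1). TXN (chromosome 9, 110243810 to 110256507, reverse strand) reached 256 and 267 CPM with DMSO and 162 and 159 CPM with dBET1. Each dBET1 library was lower than either DMSO library by many times the spread. The log2 fold change was -0.70 (SE 0.0709, edgeR quasi-likelihood adjusted p = 0.000138), the lowest of the NRF2 genes but within 1 SE of KEAP1, and it was -0.76 to -0.49 under the alternatives. TXNRD1 (chromosome 12, 104215779 to 104350307, forward strand) reached 334 and 285 CPM with DMSO and 287 and 293 CPM with dBET1. The DMSO replicates were further apart than the groups. Its log2 fold change of -0.09 (SE 0.0887, edgeR quasi-likelihood adjusted p = 0.413) rested on which DMSO library was kept. It was -0.23 (adjusted p = 0.00372) without DMSO replicate 2 and 0.00081 (adjusted p = 0.991) without DMSO replicate 1, and it turned to 0.12 with total counts only.

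Peroxiredoxin 1 (PRDX1) removes hydrogen peroxide with the help of thioredoxin, and sulfiredoxin (SRXN1) repairs peroxiredoxins that have been oxidised too far. PRDX1 (chromosome 1, 45510914 to 45542732, reverse strand) was the most abundant of the 10, with 604 and 643 CPM with DMSO and 409 and 428 CPM with dBET1. The groups did not overlap, as in 79.3% of all tested genes. The log2 fold change was -0.57 (SE 0.0714, edgeR quasi-likelihood adjusted p = 0.000376), and -0.64 to -0.36 under the alternatives. PRDX1 shares 501 exonic bases with MMACHC, a gene of the opposite strand that had 1048 and 837 counts under DMSO against 549 and 524 under dBET1. SRXN1 (chromosome 20, 646615 to 653200, reverse strand) reached 95.1 and 94.5 CPM with DMSO and 107 and 103 CPM with dBET1. The dBET1 libraries were both slightly higher, without overlap. The log2 fold change of 0.14 (SE 0.0764) did not pass (edgeR quasi-likelihood adjusted p = 0.142). It did with total counts only (0.35, adjusted p = 0.00628) and with at least 10 counts in every library (0.21, adjusted p = 0.0416). A readthrough gene that shares 2292 exonic bases with SRXN1 held only 11 to 22 counts a library.

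HMOX1 (chromosome 22, 35380361 to 35394214, forward strand) encodes heme oxygenase 1, which opens the heme ring and is among the genes most strongly induced by NRF2 and derepressed when BACH1 leaves. It had 0 counts in both DMSO libraries, 0 in dBET1 replicate 1 and 10 in dBET1 replicate 2. The 10 counts were 0.327 CPM, while a count of 0 allows up to 3 counts, or 0.0919 to 0.107 CPM in the libraries without a count; this covers counting error only. No fold was computed, since 3 of 4 libraries were at 0. The other 9 genes had 631 counts or more in every library. Since ALDH3A2 and PTGR1, which many cells express, were also at 0 in all 4 libraries, and the step that made the counts is not given in the sources used here, a 0 in this table cannot be told apart from a gene that the counting missed. HMOX2, the constitutive heme oxygenase, was present at 43.7 ± 6.68 CPM with DMSO and 28.7 ± 1.56 CPM with dBET1 (SD, n = 2 per condition), a log2 fold change of -0.60 (edgeR quasi-likelihood adjusted p = 0.00472).

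Compared per kilobase of canonical transcript, the level with DMSO fell in the order PRDX1 (660 ± 28.9 CPM per kb), TXN (355 ± 10.8), TXNRD1 (80.1 ± 8.95), KEAP1 (75.0 ± 3.41), NFE2L2 (57.2 ± 2.54), SRXN1 (37.5 ± 0.179), NQO1 (29.0 ± 0.0952), GCLM (11.3 ± 0.693) and GCLC (5.58 ± 0.496), with HMOX1 at 0 (SD, n = 2 each). TXNRD1 and KEAP1 were neighbours that did not differ beyond their spread. With dBET1 NQO1, at 52.7 ± 0.954 CPM per kb, stood above KEAP1 (47.5 ± 0.104), NFE2L2 (43.7 ± 2.25) and SRXN1 (41.4 ± 1.13), all 3 of which were above it with DMSO. GCLC (11.2 ± 0.356) and GCLM (10.9 ± 0.615) no longer differed beyond their spread. The 4 NRF2 genes that fell and TXNRD1 belonged to the most abundant 10% of tested genes by mean CPM over the 4 libraries, in which the median log2 fold change was -0.41 with 244 genes higher and 1117 lower. NQO1 and SRXN1 were in the tenth below it, with a median of -0.32, GCLM in the next (-0.19) and GCLC in the one after (-0.09). The part of abundance in the changes of these genes was not tested.

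**Figure D3:**
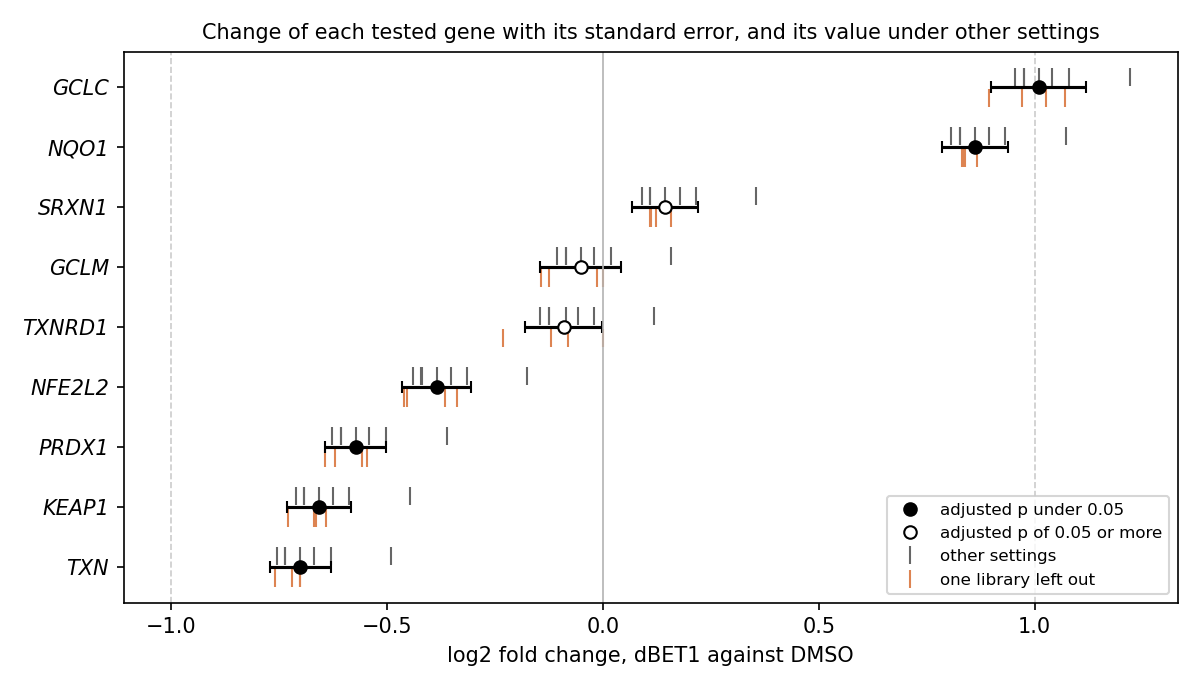
Log2 fold change of the 9 tested NRF2 genes with its standard error (points; filled where the adjusted p was under 0.05), with the values under other settings as grey ticks and with 1 library left out as orange ticks; dashed lines mark a log2 fold change of 1 in either direction. GCLC and NQO1 stay above 0 and TXN, KEAP1, PRDX1 and NFE2L2 below it throughout, while GCLM and TXNRD1 have values on both sides.

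The wider pathway was followed in 7 lists with 121 genes, written from general knowledge with earlier results of these data known. Of these, 120 were matched by symbol, with SOD2 as the gene that was not, and 105 passed the count filter. By the same test and threshold, 30 were higher and 43 were lower, 41.1% of the calls being higher, while 28.0% of all tested genes were higher and 27.6% lower. Those shares of all genes stand behind each list count that follows, but they take no account of abundance. In the most abundant 10% of tested genes, 244 of 1797 were higher and 1117 lower. In the next 10%, 309 were higher and 972 lower, and in the least abundant 10%, 674 were higher and 54 lower. The part of abundance in the list counts was not tested. With total counts only, 37 list genes were higher and 35 lower, 51.4% of the calls being higher. The median log2 fold change of the 105 tested list genes was -0.15.

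Regulators and partners of NRF2 went both ways, with 6 higher, 4 lower and 6 not passing among 16 tested (28.0% and 27.6% of all genes were higher and lower) and a median of 0.20. With total counts only there were 9 higher and 3 lower, with a median of 0.41. SQSTM1, the autophagy receptor p62 that can pull KEAP1 away from NRF2, rose most in this list, from 172 ± 9.31 to 476 ± 4.23 CPM (SD, n = 2 per condition), a log2 fold change of 1.47 (edgeR quasi-likelihood adjusted p = 1.06e-05). The genes of the ligase that KEAP1 serves fell: CUL3, its scaffold, from 93.1 ± 8.08 to 63.0 ± 0.241 CPM and RBX1, its RING subunit, from 61.7 ± 6.36 to 28.1 ± 0.644 CPM. BACH1, the repressor of ARE genes, rose from 42.3 ± 4.64 to 66.7 ± 4.61 CPM, a log2 fold change of 0.66 (adjusted p = 0.00149), and its relative BACH2 from 10.1 ± 1.07 to 22.8 ± 0.963 CPM. The ratio of NFE2L2 to BACH1 per kilobase was 7.27 and 7.97 under DMSO against 3.73 and 3.64 under dBET1. This activator to repressor ratio of RNAs fell by 1.05 on the log2 scale, against SDs of 0.0944 and 0.0256. Any reads of HNRNPA3 among the NFE2L2 counts would enter this ratio, and their part was not tested.

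Among the small MAF partners, MAFG fell from 169 ± 3.42 to 123 ± 0.423 CPM (SD, n = 2 per condition; edgeR quasi-likelihood adjusted p = 0.00121). MAFK went from 107 ± 11.3 to 81.9 ± 1.73 CPM (log2 fold change -0.38, adjusted p = 0.0104), and its call was lost with total counts only (-0.17, adjusted p = 0.146) and without either dBET1 library. MAFF, the least abundant, went from 4.17 ± 0.421 to 7.32 ± 1.51 CPM (log2 fold change 0.81, adjusted p = 0.0183), and its call was lost with no count filter (0.75, adjusted p = 0.0749) and without dBET1 replicate 1. Of the NRF2 paralogs, NFE2L3 rose from 20.8 ± 0.833 to 32.5 ± 2.16 CPM (adjusted p = 0.00196). NFE2L1, which drives proteasome genes, stood at 167 ± 1.96 and 163 ± 0.600 CPM, a log2 fold change of -0.03 that became 0.18 with total counts only and did not pass in either (adjusted p = 0.722 and 0.0704).

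Around glutathione, 13 of 27 tested genes were lower (27.6% of all genes), 3 were higher (28.0% of all) and 11 did not pass, with a median of -0.37; with total counts only, 9 were lower and 4 higher. GSR, the reductase that regenerates glutathione, fell from 236 ± 4.85 to 147 ± 0.132 CPM (SD, n = 2 per condition), a log2 fold change of -0.68 (edgeR quasi-likelihood adjusted p = 0.000157). The membrane transferase MGST1 fell from 69.1 ± 0.884 to 24.4 ± 0.454 CPM, the transferase GSTO1 from 229 ± 29.5 to 108 ± 2.39 CPM and the glutaredoxin GLRX3 from 149 ± 11.1 to 62.0 ± 1.43 CPM. Of the genes that feed the pathway, SLC7A11, the cystine carrier, had 17.6 ± 3.45 and 15.5 ± 0.372 CPM (adjusted p = 0.380). GSS, which completes glutathione, had 59.5 ± 0.0123 and 53.0 ± 1.86 CPM (adjusted p = 0.134). Neither passed, and the log2 fold changes of both, -0.18 and -0.16, turned to 0.03 and 0.05 with total counts only. The higher genes were GGT7, from 11.7 ± 0.602 to 21.4 ± 1.21 CPM, GSTM2, from 3.49 ± 0.563 to 7.08 ± 0.108 CPM, and SLC3A2, the chain that carries SLC7A11 to the membrane, from 328 ± 18.9 to 396 ± 11.4 CPM. SLC3A2 (log2 fold change 0.27, adjusted p = 0.0157) lost its call with no count filter and without either dBET1 library.

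In the thioredoxin and peroxiredoxin list, 10 of 21 tested genes were lower (27.6% of all genes), 7 were higher (28.0% of all) and 4 did not pass; the median of -0.13 turned to 0.08 with total counts only. PRDX2, PRDX3 and PRDX4, the peroxiredoxins of the cytosol, the mitochondrion and the endoplasmic reticulum, had log2 fold changes below -1. PRDX2 fell from 356 ± 31.5 to 151 ± 5.07 CPM (log2 fold change -1.24, edgeR quasi-likelihood adjusted p = 2.66e-05), PRDX3 from 175 ± 5.13 to 70.5 ± 3.08 CPM (-1.31) and PRDX4 from 144 ± 4.53 to 57.4 ± 0.640 CPM (-1.32; SD, n = 2 per condition). PRDX6 fell from 467 ± 24.3 to 286 ± 6.57 CPM (-0.71), while PRDX5 had 114 ± 21.1 and 111 ± 3.64 CPM and did not pass (-0.04, and 0.17 with total counts only). Of the mitochondrial partners, TXN2 fell from 108 ± 4.34 to 61.4 ± 2.81 CPM, and TXNRD2 had 126 ± 17.7 and 114 ± 4.51 CPM (adjusted p = 0.307; log2 fold change -0.13, and 0.08 with total counts only). PRDX2 is abundant in red cells, and the summed erythroid markers given above fell in the same libraries. Whether the 2 falls are linked was not tested.

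TXNIP, which binds thioredoxin and blocks it, rose from 164 ± 9.88 to 1340 ± 8.15 CPM (SD, n = 2 per condition), a log2 fold change of 3.04 (edgeR quasi-likelihood adjusted p = 1.09e-06). Per kilobase, TXNIP RNA stood at 0.169 and 0.149 of the level of TXN in the DMSO libraries and at 2.08 and 2.15 times that level in the dBET1 libraries. The order of inhibitor and target RNA was thus the reverse of that in DMSO in both dBET1 libraries, a 13.3-fold difference in the ratio. SESN3, a sestrin, rose from 5.18 ± 0.896 to 25.8 ± 1.66 CPM, and TXNRD3, a further reductase, from 1.79 ± 0.114 to 5.18 ± 0.0153 CPM. TXNDC5, a disulfide isomerase of the endoplasmic reticulum, fell from 293 ± 22.3 to 129 ± 5.95 CPM. TXNDC12, of the same compartment, went from 69.1 ± 1.84 to 89.7 ± 3.24 CPM (log2 fold change 0.38, adjusted p = 0.00559), and its call was lost without either dBET1 library.

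Enzymes for quinones, aldehydes and other foreign compounds were the list with the highest median, 0.40, with 8 higher, 2 lower and 4 not passing among 14 tested of 21 (28.0% and 27.6% of all genes were higher and lower). With DESeq2 6 were higher, since NQO2 and ALDH2, a gene with few counts, lost their calls. OSGIN1, an NRF2-responsive growth inhibitor, rose from 7.11 ± 0.0517 to 29.6 ± 0.416 CPM (SD, n = 2 per condition), a log2 fold change of 2.06 (edgeR quasi-likelihood adjusted p = 1.90e-05). The epoxide hydrolases EPHX2 and EPHX1 rose from 11.8 ± 1.01 to 26.5 ± 0.107 CPM and from 53.8 ± 1.04 to 79.2 ± 4.07 CPM, and the carbonyl reductase CBR4 rose by 0.71 on the log2 scale (adjusted p = 0.00134). AKR1C1 and AKR1C2, aldo-keto reductases that are common markers of NRF2 activity, fell from 45.5 ± 0.628 to 29.4 ± 2.03 CPM and from 25.4 ± 0.161 to 15.5 ± 0.652 CPM. These 2 genes are near-identical, so reads may be split between them, but both fell. AKR1B10, ALDH3A1, ALDH3A2, PTGR1 and CES1 had 0 counts in every library. NQO1 and OSGIN1 on one side and AKR1C1 and AKR1C2 on the other thus moved in opposite directions in the same libraries.

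NADPH, the electron source for TXNRD1, GSR and NQO1, comes in part from the pentose phosphate pathway. Of 12 tested genes, 4 were lower (27.6% of all genes), 2 were higher (28.0% of all) and 6 did not pass, with a median of -0.13 that turned to 0.08 with total counts only. With total counts 3 were lower and 4 higher, and with DESeq2 4 were lower and 0 higher. TKT fell from 581 ± 5.26 to 354 ± 8.32 CPM, TALDO1 from 282 ± 14.7 to 165 ± 2.24 CPM and IDH1 from 54.3 ± 5.28 to 29.9 ± 0.481 CPM (SD, n = 2 per condition). ME2, a mitochondrial malic enzyme, went from 44.7 ± 4.17 to 34.8 ± 0.346 CPM (log2 fold change -0.36, adjusted p = 0.0181), and its call was lost with total counts only and without either dBET1 library. PGLS, the lactonase of the pathway, had 36.3 ± 5.39 and 47.4 ± 5.89 CPM; its call (log2 fold change 0.39, adjusted p = 0.0396) was lost in 5 of the 11 alternatives. ME1, a malic enzyme that NRF2 is known to drive, had 23.6 ± 0.209 and 29.0 ± 0.580 CPM; its call (log2 fold change 0.30, adjusted p = 0.0435) was lost in 8 of the 11 alternatives.

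Of the 9 tested genes of heme breakdown and iron storage, 6 were lower (27.6% of all genes) and 3 were higher (28.0% of all), with a median of -0.54. With total counts only 5 were lower, since POR, the reductase that passes electrons to heme oxygenase, lost its call (-0.04, adjusted p = 0.649), as it did with at least 10 counts in every library and without either dBET1 library. FTH1 and FTL, the ferritin chains, whose genes carry AREs, rose from 2271 ± 161 to 3271 ± 24.4 CPM and from 2522 ± 180 to 3143 ± 15.4 CPM (SD, n = 2 per condition; edgeR quasi-likelihood adjusted p = 0.000636 and 0.00711). The call of FTL was lost without either dBET1 library. NCOA4, the receptor that delivers ferritin to the lysosome, rose from 188 ± 12.9 to 402 ± 0.588 CPM. BLVRB and BLVRA, the reductases that act on biliverdin after heme oxygenase, fell from 258 ± 36.0 to 125 ± 7.29 CPM and from 65.7 ± 8.44 to 40.6 ± 1.65 CPM. SLC48A1, a heme transporter, fell by 0.54 on the log2 scale (adjusted p = 0.00115). SLC40A1, the iron exporter ferroportin, fell from 78.1 ± 7.05 to 22.9 ± 1.31 CPM, the lowest log2 fold change in the 7 lists (-1.77). BLVRB is abundant in red cells, and the summed erythroid markers fell in the same libraries. A link between these falls was not tested.

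The list for superoxide and peroxide removal held a chaperone and a kinase beside enzymes. Of its 6 tested genes, 4 were lower (27.6% of all genes) and 1 was higher (28.0% of all), with a median of -0.60. With total counts only 3 were lower. SOD1, the cytosolic superoxide dismutase, fell from 290 ± 11.0 to 162 ± 2.50 CPM, catalase (CAT) from 119 ± 6.79 to 63.1 ± 1.60 CPM and PARK7 from 302 ± 50.3 to 142 ± 0.608 CPM (SD, n = 2 per condition; edgeR quasi-likelihood adjusted p = 6.32e-05, 8.29e-05 and 0.000153). OXSR1, a stress-responsive kinase, went from 122 ± 14.4 to 95.3 ± 0.347 CPM (log2 fold change -0.36, adjusted p = 0.0145), and its call was lost with total counts only and without either dBET1 library. CCS, the chaperone that loads SOD1 with copper, rose from 20.9 ± 4.18 to 39.4 ± 1.08 CPM while its client fell.

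**Figure D4:**
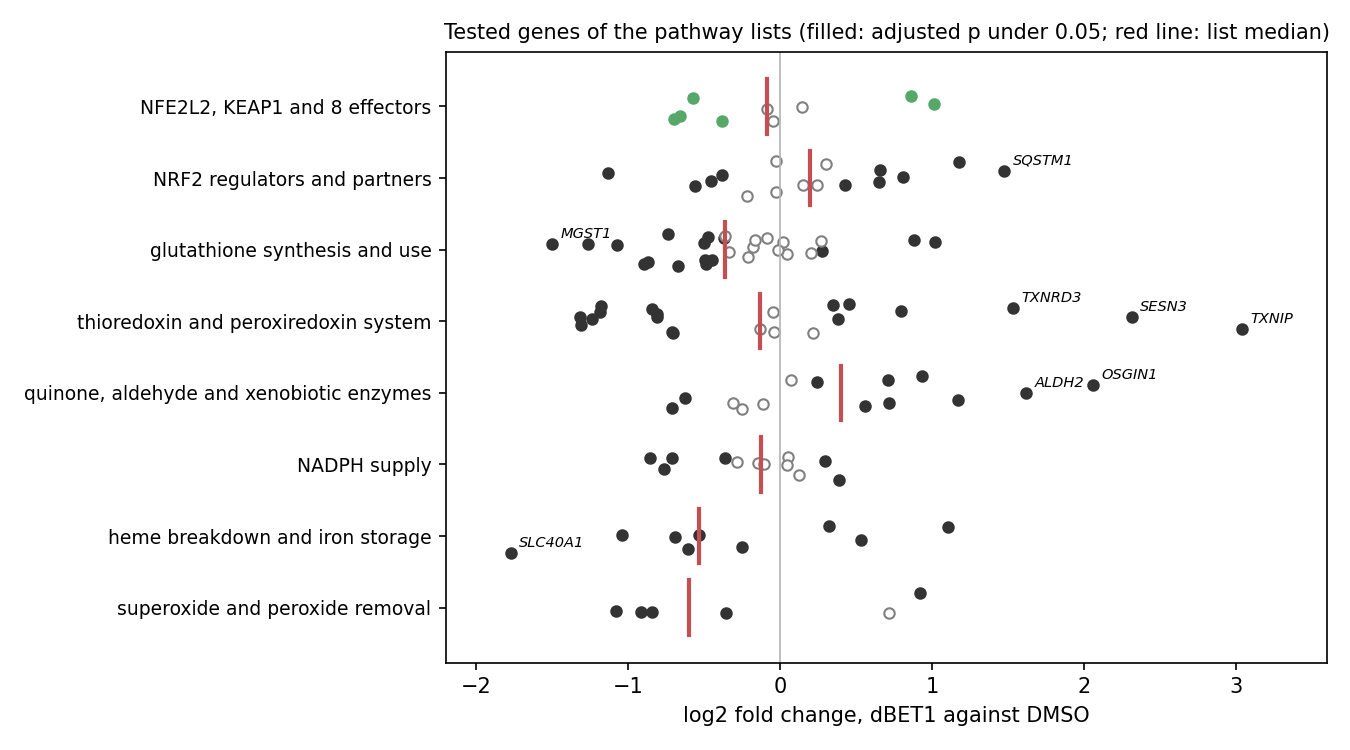
Log2 fold change of each tested gene in the NRF2 set and the 7 pathway lists; filled points had an adjusted p under 0.05, open points did not, and the red line is the list median. Medians run from -0.60 for superoxide and peroxide removal to 0.40 for quinone, aldehyde and xenobiotic enzymes, and each list has called genes on both sides of 0.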

How the data were processed

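The 4 libraries were assigned by their labels, and the control columns of the table to the DMSO samples by time and replicate number; 0 columns and 0 rows were left out. The authors aligned paired-end reads to hg38 with HISAT2 2.2.0, estimated abundances with StringTie and deposited raw whole-number counts for each gene. How abundances became counts is not given in the sources used here, so the counts may be a multiple of the reads; an alternative divided them by 2. Counts summed to 28019956 to 34685645 per library. Symbols, positions and canonical transcript lengths came from GENCODE release 44 (56105 of 64252 identifiers found; the rest held 2.57% of counts), promoter sequences from RefSeq (GRCh38.p14).

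Counts were compared with edgeR 4.0.16 in R 4.3.3 (filterByExpr, TMM factors, quasi-likelihood test with the group alone, Benjamini-Hochberg over 17971 genes). The standard error was the log2 fold change divided by the square root of F. The paper's methods use DESeq2 with limits of 0.05 on the adjusted p and 1 on the absolute log2 fold change; DESeq2 1.42.0 was an alternative. Replicate libraries differed by more than counting noise (chi-square per degree of freedom 23.6 for DMSO and 8.14 for dBET1, over genes with at least 100 counts in the pair). The paper's methods say in general that experiments were independently repeated, but the labels do not tie these 2 libraries per group to separate cultures, so p-values may measure only the spread between these samples, which may be technical. The steps were tested on simulated data.

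The NRF2 genes and the lists were chosen with earlier results of these data known. Genes named are the 10 NRF2 genes, their paralogs and direct partners, and from each list the up to 4 smallest p per direction, with markers for the check of the line; AKR1B10, ALDH3A1, ALDH3A2, PTGR1, CES1, POR, ALDH2, HNRNPA3, MMACHC and the selenoprotein genes were named after their values were seen. Other alternatives were DESeq2 size factors, total counts only, filtering at 10 counts in every library, no filter, the replicate number as a block, and each library left out in turn. The values of 1 list gene are not reported here.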

Additional observations from a re-analysis of the deposited data

How the results depend on the processing

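Over 11 alternatives, 5 to 7 NRF2 genes passed the test (2 or 3 higher, 3 to 5 lower), against 6. KEAP1, NQO1, GCLC, TXN and PRDX1 kept direction and call in all of them. GCLM turned to 0.16 with total counts only and 0.019 with at least 10 counts in every library, and TXNRD1 to 0.12 with total counts only; neither passed there. When 1 library was left out, with a lone sample assumed to vary like the other group, 5 to 7 NRF2 genes, 56 to 79 list genes and 3356 to 5118 higher genes of the whole table were called (3356 without dBET1 replicate 2, against 5038 with all). Log2 fold changes then ran from -0.14 to -0.00043 for GCLM and from -0.23 to 0.00081 for TXNRD1. The cause was not tested. Same-numbered libraries did not deviate together (correlation across genes 0.0023), and with the replicate number as a block 6 NRF2 genes, 73 list genes and 9873 of all genes were called, against 6, 73 and 9991. With counts divided by 2, 6 NRF2 genes and 9545 of all genes were called. The 9 tested NRF2 genes had 631 counts or more in every library, and HMOX1 had at most 10.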

Other observations

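TXNRD1 is a selenoprotein, an enzyme with selenocysteine at its active end, and the other genes of that class were listed after the values above had been seen. Of 25 selenoprotein genes, 19 passed the count filter, 5 were higher (28.0% of all genes), 5 were lower (27.6% of all) and 9 did not pass edgeR's quasi-likelihood test at 0.05 after adjustment. Their median log2 fold change was -0.13, and it turned to 0.08 with total counts only. With DESeq2 3 were higher, since DIO1 and SELENON lost their calls, as both did with no count filter, without DMSO replicate 1 and without either dBET1 library. SELENOP, the secreted selenium carrier, rose from 68 and 64 counts under DMSO to 286 and 270 counts with dBET1, a log2 fold change of 2.07 (edgeR quasi-likelihood adjusted p = 0.000137). SELENOI, an enzyme of phospholipid synthesis, fell from 2938 and 2268 to 1228 and 1294 counts (log2 fold change -1.04, adjusted p = 7.81e-05). GPX4, which protects lipids from peroxidation, had 4959 and 5066 counts with DMSO and 5225 and 4957 with dBET1 and did not pass (0.02, adjusted p = 0.886). GPX1 had only 5 to 11 counts in each library.

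Genes listed around the making and insertion of selenocysteine also went both ways. Of 6, 2 were higher (28.0% of all genes) and 2 lower (27.6% of all), and with total counts only 3 were higher and 2 lower. SEPSECS, which completes selenocysteine on its tRNA, rose by 0.87 and the elongation factor EEFSEC by 0.53 on the log2 scale. The call of EEFSEC was lost with no count filter (0.47). SEPHS1 (-0.67) and the synthetase gene SARS1 (-0.42) fell, as did SEPHS2 (-0.62), which is counted with the selenoprotein genes above.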
